A study of Danio rerio with 4 samples.

Results

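The genes described here are 10 that mark injury and repair in epithelia: havcr1, clu, spp1, sox9a, sox9b, krt8, krt18a.1, hmox1a, atf3 and anxa2a. They were taken by name from a fixed list, and all 10 were found among the 28357 genes listed in any library and in each of the 4 libraries (krt18a.1 stands in the files under its older symbol krt18). Kidneys of adult AB zebrafish were taken 4 days after an intraperitoneal injection of gentamicin (4 dpi; 20 µl per fish at 2.7 µg/µl), and 31008 single cells were measured in 4 libraries of this 1 condition. The series holds no uninjured kidney, so the values below show in which cells of the injured kidney each gene was found, and none of them measures a change caused by the injury. Fish entered the study when they had protein in the urine at 1 dpi, cells were freed with trypsin, and the sources do not state which fish went into which library. The p-values below measure the spread between these 4 libraries, which may be smaller than that between fish.

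Gentamicin is an aminoglycoside antibiotic that proximal tubule cells take up and that damages them. In mammals, the injured tubule epithelium loses its polarity and switches on a set of genes that has become the usual readout of acute kidney injury. Among them are the surface receptor Kim-1 (Havcr1), with which epithelial cells bind and engulf dead neighbours, and the secreted proteins clusterin (Clu) and osteopontin (Spp1). The transcription factor Sox9 marks cells that take part in repair, and Krt8 and Krt18 are keratins of simple epithelia. Heme oxygenase 1 (Hmox1) degrades heme, Atf3 is a stress transcription factor and annexin A2 (Anxa2) binds membranes. Zebrafish have a pair of sox9 genes, sox9a and sox9b. The adult zebrafish kidney is also the site of blood formation, so its nephrons lie among blood progenitors, neutrophils and macrophages, and these cells make up most of each library.

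Libraries 1 to 4 held 9048, 9831, 6308 and 5821 cells and between 59350367 and 87759842 unique molecular identifiers (UMIs, each a counted transcript). Libraries 3 and 4 held 9953.5 and 9883 UMIs in the median cell and libraries 1 and 2 held 4643.5 and 4358, while 13 genes for mitochondrial proteins were listed only in libraries 3 and 4 (5.15% and 5.03% of UMIs). Libraries 1 and 2 were therefore treated as one technical batch and libraries 3 and 4 as another. Libraries 1 and 2 shared 108 barcodes and libraries 3 and 4 shared 46, against at most 7 between the batches. Barcode numbers ran up to 884679 and 884633 in libraries 1 and 2 and to 14044812 and 14044073 in libraries 3 and 4. These ranges differ between the batches, so counts shared within a batch cannot be set against those shared between batches. Within each batch the ranges were alike. Libraries 3 and 4 had fewer cells and a wider range of numbers than libraries 1 and 2. The number of barcodes shared by coincidence was not computed, and whether libraries 3 and 4 are independent of each other was not tested. Cells were clustered with the 10 genes kept out, and clusters were named from marker genes as 13 classes. These were nephron progenitors (91 cells carrying markers of the study's renal stem cells, RSCs), interstitial cells (RIC-like, 261 cells), vascular endothelium (VEC-like, 605 cells), proximal (PTEC-like, 394 cells) and distal (DTEC-like, 979 cells) tubule epithelium, KMSC-like cells (1266), and 7 blood classes with 16593 cells. The 12085 cells outside progenitors, stroma, endothelium, tubule and blood were KMSC-like, follicle-like or in clusters left without a name. Of these, cluster 2 (2529 cells led by jac2, jac3 and mrc1b) and cluster 24 (151 cells led by tnks1bp1 and sox13) are described below because members were high there. The levels of hmox1a and krt8 in cluster 23 (182 cells led by spock3, syngr3b and epdl1) are given as well. The macrophage marker mpeg1.1 was also among the 10 leading genes of cluster 23, while its highest mean log2 ratio for the markers of any class was -0.0677. Expression of a gene in a class is given as its UMIs per 1000000 UMIs of that class in a library (CPM), in the order of libraries 1 to 4.

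Of the 10 members, 2 had most of their UMIs in the tubule as named here, without cluster 24, and 8 did not. The share over all genes was not computed. Such shares depend on the size of a class as well as on the level in it. PTEC-like cells were 1.27% and DTEC-like cells 3.16% of all cells. Macrophage-like cells were 5.43%, cluster 2 8.16% and neutrophil-like cells 25.9%, while RIC-like cells were 0.842% and cluster 24 0.487%. Macrophage-like cells held 87.7% of the havcr1 UMIs and 83.2% of the hmox1a UMIs of all cells, and cluster 2 held 60.2% of those of anxa2a and 45.5% of those of krt8. Neutrophil-like cells held 52.5% of the atf3 UMIs, although its mean level was 290 CPM there and 448 CPM in DTEC-like cells, with overlapping libraries. The 2 found mostly in the tubule were krt18a.1 (37.8% in PTEC-like and 29.9% in DTEC-like cells) and spp1 (61.4% in DTEC-like cells). RIC-like cells held 65.1% of the clu UMIs. Of those of sox9a cluster 24 held 51.8% and DTEC-like cells 33.0%. Cluster 24 scored highest for DTEC markers and stayed without a name through a condition set after it was seen. Counted with the tubule, it would place most sox9a UMIs there as well. The members also differed widely in abundance, from krt8 with 87295 UMIs and a UMI in 38.5% of all cells to clu with 255, spp1 with 228, sox9a with 112 and sox9b with 16 UMIs in all 31008 cells.

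**Figure D1:**
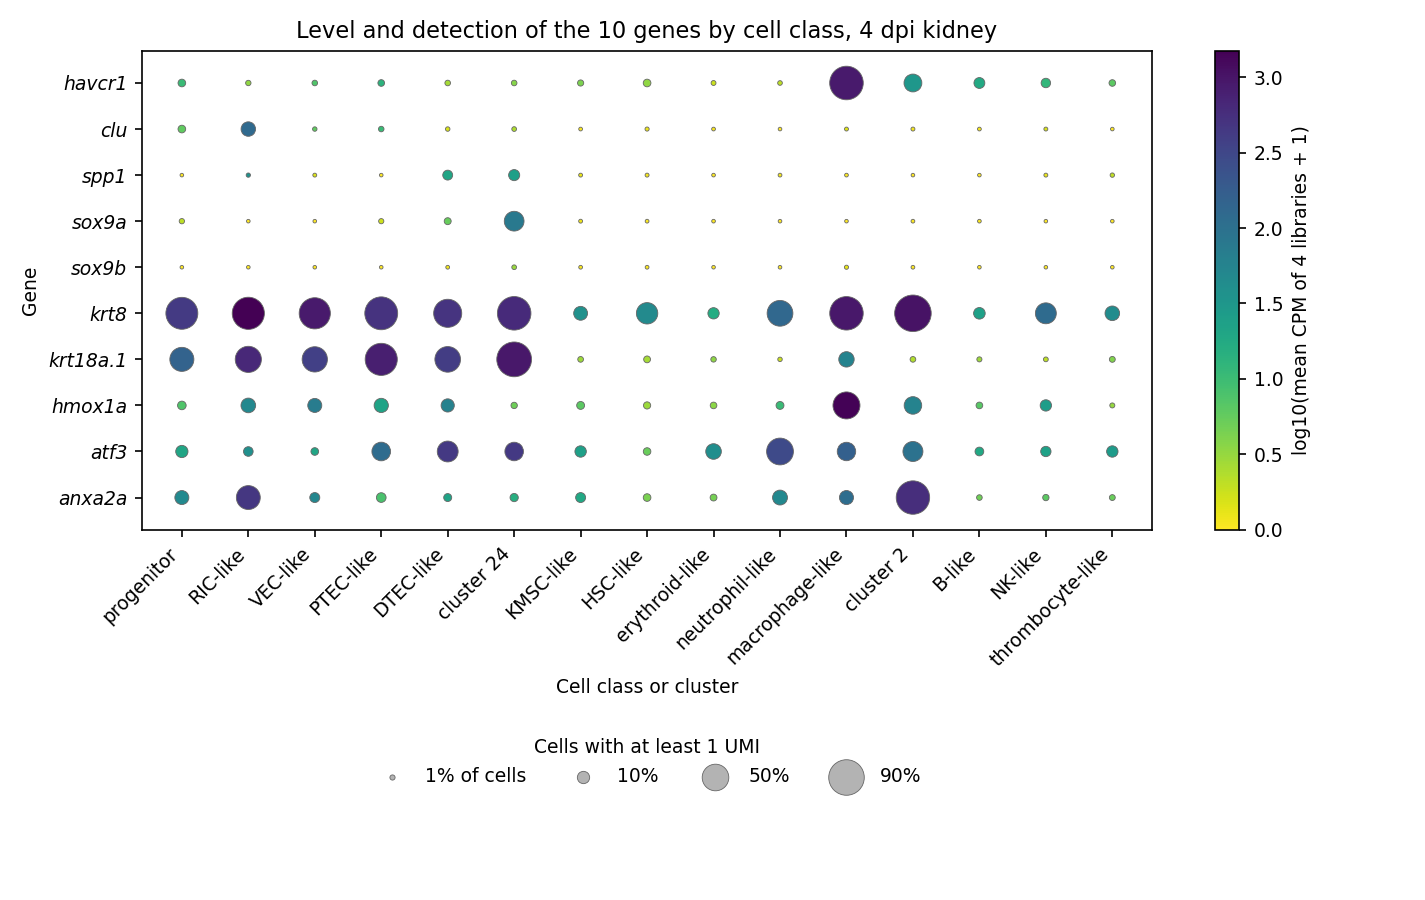
Level and detection of the 10 genes across cell classes and clusters (x axis), with the mean CPM of the 4 libraries as colour (log10 of CPM + 1) and the share of cells with at least 1 UMI as dot area. The darkest dots of havcr1 and hmox1a stand at macrophage-like cells, those of krt18a.1 at the tubule classes, RIC-like cells and cluster 24, and those of anxa2a at RIC-like cells and cluster 2.

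**Figure D2:**
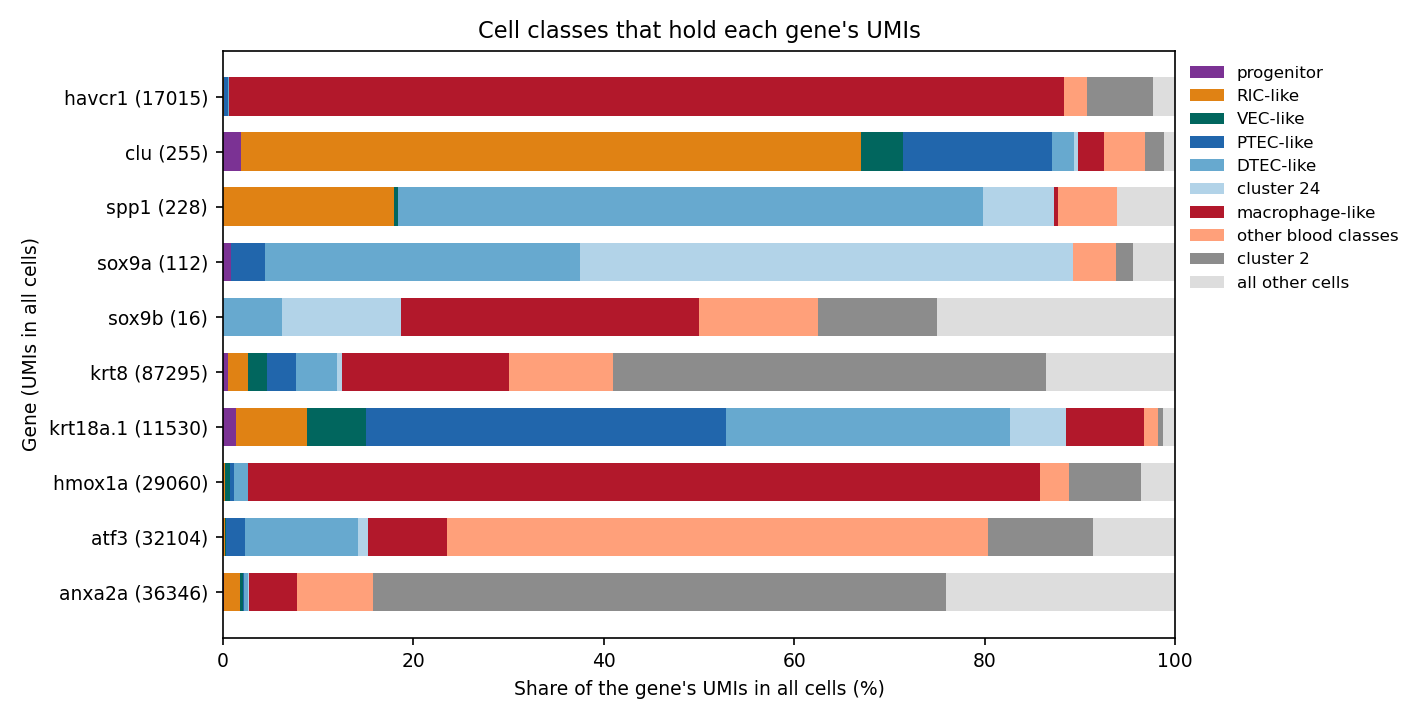
Share of each gene's UMIs (x axis, percent) that lay in each group of cells, summed over the 4 libraries. Macrophage-like cells fill 87.7% of the bar of havcr1 and 83.2% of that of hmox1a, and DTEC-like cells 61.4% of that of spp1.

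havcr1, the zebrafish Kim-1 gene, was a macrophage gene in these libraries and was close to absent from the tubule. In macrophage-like cells it had 1168, 1129, 673 and 686 CPM, and 80.2% of 1685 cells held a UMI (exact 95% interval 78.3% to 82.1%; 46.2% after each cell was thinned to 1000 UMIs). Every library was above every library of each other class, the next being B-like cells with 20.02, 15.5, 15.96 and 16.99 CPM. PTEC-like cells, the class in which Kim-1 is used as the injury marker in mammals, had 15.1, 32.9996, 1.51 and 0.787 CPM, and DTEC-like cells 3.63, 0.808, 1.68 and 0.616 CPM. Libraries 1 and 2 were the higher ones among the PTEC-like values, which overlapped those of B-like, NK-like and progenitor cells. A UMI was seen in 2.28% of PTEC-like cells (1.05% to 4.29%) and 1.33% of DTEC-like cells (0.709% to 2.26%), beside 0.635% of neutrophil-like and 0.783% of erythroid-like cells, which should lack the gene (median depths 9663, 7627, 6389 and 9174 UMIs). After thinning these shares were 0.522%, 0.105%, 0.139% and 0.0751%.

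The 62 havcr1 UMIs of PTEC-like cells came from 9 cells, and 29 of them from 1 cell of library 2. Each of those 9 cells held UMIs of macrophage markers, as did 64.2% of the other PTEC-like cells, and pooled over libraries the 11 marker genes summed to 5914 CPM, against 228 CPM in the others. By library they summed to 7144 and 7731 CPM in the havcr1-positive cells of libraries 1 and 2 (libraries 3 and 4 had fewer than 3 such cells), against 282, 278, 92.1 and 262 CPM in the 385 PTEC-like cells without a havcr1 UMI, and 24262, 24245, 19213 and 18921 CPM in macrophage-like cells. Their PTEC markers summed to 14672 and 18223 CPM in libraries 1 and 2. The part that RNA or cells of macrophages had in these 62 UMIs was not tested. timd4, a related phosphatidylserine receptor of the same gene family, had its highest mean among the classes in macrophage-like cells, at 7.60, 8.13, 12.83 and 15.6 CPM. Of the named classes B-like cells came next in detection of havcr1, with a UMI in 7.60% of cells, and cluster 2 had 31.1, 43.3, 24.7 and 23.5 CPM with 21.98% of its cells positive.

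hmox1a, which breaks heme down to biliverdin, iron and carbon monoxide, was also highest in macrophage-like cells. Larger shares of tubule, interstitial and endothelial cells held a hmox1a UMI than a havcr1 UMI. In macrophage-like cells hmox1a had 1589.9, 1412, 1068 and 1627 CPM, with a UMI in 51.6% of cells. RIC-like cells had 82.8, 17.9, 41.9 and 52.9 CPM and VEC-like cells 59.2, 56.4, 82.4 and 83.2 CPM. PTEC-like cells had 31.5, 22.9997, 11.3 and 16.5 CPM and DTEC-like cells 60.2, 123, 23.5 and 31.7 CPM. VEC-like and PTEC-like cells did not overlap and the other pairs of these 4 classes did, and each of the 4 was below all libraries of macrophage-like cells and above all libraries of erythroid-like cells (5.06, 2.77, 1.31 and 1.02 CPM). The share of cells with a UMI was 13.7% of PTEC-like, 11.6% of DTEC-like, 14.6% of RIC-like and 13.2% of VEC-like cells, against 3.58% of neutrophil-like and 2.24% of erythroid-like cells. PTEC-like cells also held macrophage marker UMIs, as given above, and the part of macrophage RNA in their hmox1a was not tested. Of all groups of cells cluster 23 came next after macrophage-like cells, with 145, 130.1, 184 and 127 CPM and a UMI in 49.5% of cells, above every PTEC-like, DTEC-like, RIC-like and VEC-like library. It also held krt8, at 1306, 1449, 831 and 563 CPM, with 3 UMIs of krt18a.1.

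Within macrophage-like cells hmox1a was concentrated in few cells: the tenth of the cells with the most hmox1a UMIs held 82.1% of them, against 45.9% for havcr1. The 870 macrophage-like cells with a hmox1a UMI had 2125, 1959.5, 1267 and 1379 CPM of slc40a1, the iron exporter ferroportin, against 836, 677, 515 and 315 CPM in the 815 cells without. They also had more havcr1, 1519, 1454, 861 and 870.4 CPM against 674, 731, 314 and 299.8 CPM, and more krt18a.1, 81.9, 93.8, 78.2 and 66.7 against 18.3, 20.1, 3.58 and 24.2 CPM. All 3 genes were higher in the hmox1a-positive cells of each library, which were also deeper (median 10111.5 against 6781 UMIs). With every cell thinned to 1000 UMIs, 296 of 1648 macrophage-like cells held UMIs of both havcr1 and hmox1a, beside 208 if the genes were found independently of each other.

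DTEC-like cells gave a comparable picture with other genes. The 114 DTEC-like cells with a hmox1a UMI had 1431, 1177, 562 and 355 CPM of krt8 and 1563, 819.7, 890.1 and 327 CPM of krt18a.1, and the 865 cells without had 588, 669.95, 167 and 216 and 275, 417, 206 and 219.7 CPM. Their sox9a was 18.95, 8.12, 17.9 and 9.27 CPM against 1.88, 6.05, 0.842 and 1.06 CPM. All 3 members were thus higher in the hmox1a-positive cells in each of the 4 libraries, while DTEC markers were not (12486, 20094, 10254 and 13527 against 19859, 17314, 10504 and 10918 CPM). The positive cells were deeper (median 11156.5 against 7190 UMIs), and sox9a rests on 37 UMIs in DTEC-like cells. With cells thinned to 1000 UMIs, 31 of 949 DTEC-like cells held hmox1a, 9 of them with krt8 (6.73 if the genes were found independently), 7 with krt18a.1 (5.72) and 13 with atf3 (5.13). These cells are too few, and detection is too unlike CPM, to tell whether the difference in the keratins remains at equal depth.

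krt8 and krt18a.1 encode the type II and type I keratins that pair into the filaments of simple epithelia, and both were detected in tubule, progenitor, interstitial and endothelial cells, while most blood classes had krt8 with little krt18a.1. RIC-like cells had 2638, 2051, 805 and 489 CPM of krt8 and 1153, 769, 336 and 413 CPM of krt18a.1, with a UMI of krt8 in 73.6% and of krt18a.1 in 48.3% of cells. VEC-like cells had 1423, 1496, 357 and 338 CPM of krt8 and 606, 477, 235 and 168 CPM of krt18a.1, and progenitors 643, 549, 153 and 359.7 CPM and 151, 169, 61.2 and 209.8 CPM. In RIC-like and VEC-like cells both libraries of the first batch were above both of the second for each keratin. krt8 had 590.3, 562, 380.1 and 513 CPM in PTEC-like and 781, 771, 226 and 234 CPM in DTEC-like cells, and krt18a.1 had 729.5, 598, 881 and 1055 CPM in PTEC-like and 571, 497, 307 and 234 CPM in DTEC-like cells. In DTEC-like cells both genes were higher in libraries 1 and 2 than in 3 and 4, and in PTEC-like cells krt18a.1 was not.

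In macrophage-like cells and cluster 2 krt8 was above both tubule classes in each library, and krt18a.1 was below them. Macrophage-like cells had 1104, 1088, 773 and 716 CPM of krt8 with 55.4, 60.6, 52.6 and 52.9996 CPM of krt18a.1, and cluster 2 had 1229.6, 1244, 879 and 776 with 2.19, 1.19, 1.59 and 0.667 CPM. Both groups held instead krt18b, another keratin 18 gene (zgc:77517 in the files), at 694, 719, 639 and 729.7 CPM and 1621, 1622, 1453 and 1453 CPM. krt18b was low in the tubule, with 28.6, 8.9999, 6.03 and 32.3 CPM in PTEC-like and 43.5, 18.6, 16.8 and 5.85 CPM in DTEC-like cells. RIC-like cells (682, 841, 190.1 and 249.6 CPM of krt18b), progenitors (156, 113, 34.01 and 146 CPM) and VEC-like cells (95.6, 70.5, 169.6 and 36.2 CPM) had both keratin 18 genes. Neutrophil-like cells had 149, 156, 111 and 108 CPM of krt8 with a UMI in 46.8% of cells, while erythroid-like cells held one in 8.28%. krt18a.1 was seen in 73.4% of PTEC-like cells, against 0.498% of neutrophil-like and 1.23% of erythroid-like cells. The keratin krt94 had 1153, 716, 475 and 302 CPM in RIC-like and 533, 395, 68.2 and 97.7 CPM in VEC-like cells, and at most 0.583 CPM in PTEC-like and 2.90 CPM in DTEC-like cells. Across the 13 classes the mean levels of krt8 and krt18a.1 had a Pearson r of 0.87 on the log2(CPM + 10) scale, a description over classes that share libraries and depth.

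**Figure D3:**
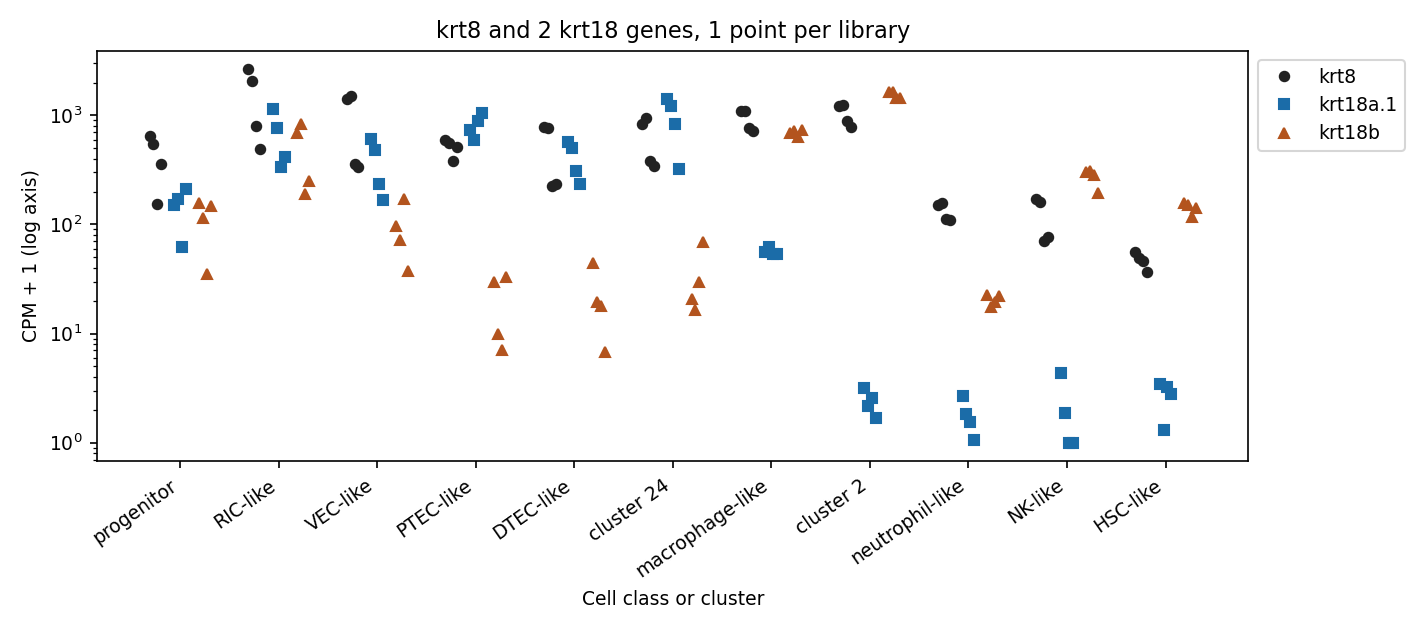
CPM of krt8, krt18a.1 and krt18b in each library (points; log axis) for the classes named on the x axis. In the tubule classes krt8 and krt18a.1 stand together and krt18b is low, and in macrophage-like cells and cluster 2 krt18b stands at 695 and 1537 CPM on average while krt18a.1 is at 55.4 and 1.41 CPM.

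anxa2a encodes annexin A2, a calcium-dependent membrane protein that in mammals forms a complex with S100A10. Among the named classes it was highest in RIC-like cells, with 832, 637, 221 and 207 CPM and a UMI in 40.2% of cells. Outside them cluster 2 had 599, 612, 541 and 524 CPM with 79.5% of cells positive, and cluster 16, led by cell division genes such as kpna2 and ccnb1, had 663, 716, 340.5 and 311 CPM. All 4 RIC-like libraries were above those of macrophage-like cells (132, 129, 81.4 and 105 CPM), the next class. The tubule had little: 17.5, 6.9999, 0.754 and 3.15 CPM in PTEC-like and 5.80, 50.1, 20.3 and 5.85 CPM in DTEC-like cells, with 5.84% and 3.68% of cells positive, below the 15.05% of neutrophil-like cells. s100a10b, which encodes S100A10, had 933, 644, 257 and 279.8 CPM in RIC-like cells, 2401, 2401, 2034 and 2069 CPM in cluster 2 and 896, 869, 361 and 407 CPM in macrophage-like cells, where RIC-like and macrophage-like cells overlapped. RIC-like cells with an anxa2a UMI had 3489, 2203, 1532 and 667 CPM of krt8 against 1414, 1795, 478 and 263 CPM in those without, and 1582, 862, 685 and 618 against 536, 614, 178 and 154 CPM of krt18a.1. Both keratins were higher in the anxa2a-positive cells of each library. RIC markers were higher in them as well, at 12291, 11469, 9559.6 and 6607 against 10551, 10434, 6117 and 3475 CPM.

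atf3, a transcription factor induced within hours by many stresses, had its highest mean among the named classes in the distal tubule. Progenitors had 46.3, 9.93, 17.01 and 3.75 CPM, RIC-like cells 73.3, 25.1, 36.3 and 20.2 CPM and VEC-like cells 22.8, 51.7, 0 and 3.62 CPM. PTEC-like cells had 162, 131, 36.9 and 137 CPM and DTEC-like cells 352, 793, 253 and 396 CPM, with a UMI in 24.1% and 30.4% of cells. Library 2 was the highest DTEC-like library, no library of the other 4 classes reached the lowest DTEC-like one, and PTEC-like library 3 overlapped the values of progenitors, RIC-like and VEC-like cells. Neutrophil-like cells had 238, 305, 259.6 and 358 CPM with 50.8% of cells positive, which overlapped DTEC-like cells, and erythroid-like cells, with 74.7, 68.9, 6.89 and 11.1 CPM, had a UMI in 16.6% of cells.

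The atf3 of DTEC-like cells lay in a minority of them, and the tenth with the most atf3 UMIs held 78.4% of them. The 298 atf3-positive DTEC-like cells carried 21125, 32157, 14238 and 17776 CPM of 32 other immediate early and heat shock genes, against 11144, 16156, 4258 and 3595 CPM in the 681 negative cells. They also had higher krt8 (1054, 937, 373 and 407 against 522, 581, 143 and 139.9 CPM) and krt18a.1 (886, 572, 557 and 363 against 273, 411, 168 and 164 CPM). Each of these was higher in the atf3-positive cells of all 4 libraries, and the positive cells were deeper (median 10397 against 6469 UMIs). Distal cells that held a UMI of slc12a3, the thiazide-sensitive cotransporter of the distal tubule, had 328, 1014, 489 and 744 CPM of atf3, against 365, 694, 163 and 282 CPM in the other DTEC-like cells, so they were higher in libraries 2, 3 and 4 and not in library 1. In the whole classes the same immediate early list summed to 3103, 2423, 1804 and 2745 CPM in PTEC-like cells, 15998, 24699.6, 7834 and 8602 CPM in DTEC-like cells and 18986, 20941, 11533 and 13886 CPM in cluster 24. Genes of this kind are known to be induced while tissue is dissociated, and the part of dissociation in the level of atf3 was not tested.

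The genes of the secreted proteins clusterin and osteopontin were rare. clu had 70.09, 179, 19.6 and 219 CPM in RIC-like cells, from 166 UMIs in 37 cells, of which 1 cell of library 4 held 52. All 4 libraries were above DTEC-like cells (0, 0.808, 0.479 and 0.923 CPM), but library 3 was below the PTEC-like value of library 2, where 1 cell held 33 of the 40 UMIs of that class (0.583, 34.9996, 1.51 and 1.57 CPM). A UMI was seen in 14.2% of RIC-like cells (10.2% to 19.01%), 1.27% of PTEC-like and 0.511% of DTEC-like cells, against 0.0124% of neutrophil-like cells. The clu-positive RIC-like cells had 14056, 15638, 11359.8 and 11017 CPM of RIC markers, against 10928, 9831, 6510.02 and 4645 CPM in the negative ones, higher in each library.

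spp1 was detected mainly in the distal tubule. It had no UMI in 394 PTEC-like cells (a count of 0 allows a UMI in up to 0.761% of cells at this depth, which is no limit on the cells that express the gene), and 31.9, 29.1, 7.18 and 9.23 CPM in DTEC-like cells from 140 UMIs in 60 cells (6.13%, 4.71% to 7.82%). Libraries 1 and 2 were above libraries 3 and 4. Cluster 24, whose cells carry DTEC markers, had 45.9, 15.5, 17.2 and 16.99 CPM, which overlapped DTEC-like cells. The 41 UMIs of RIC-like cells came from 1 cell of library 2, so their value of 146.7 CPM there describes that cell. No progenitor held a UMI (0 of 91, up to 3.30%). The spp1-positive DTEC-like cells had 20483, 21836, 14043 and 15398 CPM of DTEC markers, against 17785, 17189.8, 10249 and 11129 CPM in the others. Their hmox1a was at 10.3, 5.54, 8.34 and 0 against 68.4, 143, 24.4 and 32.7 CPM. These values of the 60 positive cells rest on few hmox1a UMIs. The tenth of DTEC-like cells with the most hmox1a held 96.3% of it, and whether it differed between the 2 sets of cells was not tested.

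The SoxE genes sox9a and sox9b, which keep progenitors of cartilage, neural crest and many epithelia, were almost undetected in the named classes. sox9a had 0.583, 0, 0.754 and 1.57 CPM in PTEC-like and 5.80, 6.46, 3.35 and 2.15 CPM in DTEC-like cells, with 1.02% and 2.55% of cells positive. Progenitors held 1 UMI, and RIC-like, VEC-like and macrophage-like cells none. The exception was cluster 24, where sox9a had 85.3, 82.8, 80.2 and 63.7 CPM and a UMI in 27.2% of 151 cells (20.2% to 34.98%), above all libraries of every named class. These cells carried DTEC markers at 6827, 7418, 4425 and 5042 CPM, against 18166, 17868, 10467 and 11264 CPM in DTEC-like cells, and cdh1 of epithelial junctions at 538, 636, 527 and 586 CPM. Their krt18a.1 was at 1423, 1205, 825 and 323 CPM and atf3 at 367, 476, 229 and 726 CPM, where 1 cell of library 4 held 106 of 359 atf3 UMIs. They were left without a name because no DTEC marker was among their 10 leading genes, a condition set for the kidney classes after this cluster had been seen and not for blood classes, so they entered no test. Counted with the tubule instead, they changed no call of a member. The 41 sox9a-positive cells had 1523, 3692, 962 and 1739.8 CPM of cell cycle markers, against 1481, 1572, 60.8 and 517 CPM in the 110 others. They were higher in libraries 2, 3 and 4 and nearly equal in library 1. This split rests on 58 sox9a UMIs and was not repeated at equal depth. sox9b had 16 UMIs in all cells, 5 of them in macrophage-like cells and 1 in the tubule, too few for any comparison. The SoxC genes, which act in embryonic and regenerating tissue, were more abundant: sox11a had 442, 381, 367 and 446 CPM in progenitors and 23.2, 20.2, 14.4 and 13.2 CPM in DTEC-like cells, and sox11b had 1.17, 4.0000, 0.754 and 0.787 CPM in PTEC-like and 115, 151, 48.6 and 49.2 CPM in DTEC-like cells.

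UMI counts were summed per library into 5 compartments (progenitor; stroma, the RIC-like cells; endothelium, the VEC-like cells; tubule, the PTEC-like and DTEC-like cells; and blood), and compared with the quasi-likelihood test of edgeR over 9547 genes. A gene is called where its p after Benjamini-Hochberg adjustment was under 0.05. The 6 members havcr1, krt8, krt18a.1, hmox1a, atf3 and anxa2a passed the filter on low counts, and clu, spp1, sox9a and sox9b did not. Differences are on the log2 scale ± SE with 4 sums per compartment. All 4 comparisons share the tubule sums and are not independent of each other.

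In the tubule set against blood, of the 6 members, krt8 and krt18a.1 were higher in the tubule and havcr1 and hmox1a lower, beside 46.5% of all genes called (25.2% higher and 21.3% lower). Clusters left without a name entered neither group. Cluster 2 was among them, highest in macrophage markers but under the ratio needed for a name. It had 1229.6, 1244, 879 and 776 CPM of krt8, each above every tubule library. Its anxa2a, at 599, 612, 541 and 524 CPM, was also above the tubule. Blood with cluster 2 added was not tested, so the results for krt8 and anxa2a hold for the named blood classes. krt18a.1 had 659, 542, 445 and 465 CPM in the tubule, against 9.68, 7.60, 7.20 and 6.51 CPM in blood. The groups lay far apart in every library, and the difference was 6.33 ± 0.46 (edgeR adjusted p = 2.93e-09; 5.91 in libraries 1 and 2 alone and 6.56 in libraries 3 and 4 alone). krt8 had 675, 678, 263 and 313 CPM, against 228, 212, 143 and 126 CPM in blood. The groups did not overlap, and the difference of 1.62 ± 0.52 (edgeR adjusted p = 0.0147; 1.42 in libraries 1 and 2 alone and 1.61 in libraries 3 and 4 alone) lost the call without library 2 (adjusted p = 0.0771) and without the count filter (adjusted p = 0.0609). havcr1 had 10.02, 15.2, 1.64 and 0.664 CPM in the tubule, against 153, 129, 82.9 and 76.9 CPM in blood, again with no overlap (-4.001 ± 0.77, edgeR adjusted p = 0.000247; -3.72 in libraries 1 and 2 alone and -5.55 in libraries 3 and 4 alone). With macrophage-like cells left out, blood had 4.37, 3.39, 2.66 and 2.53 CPM, which overlapped the tubule, and havcr1 no longer passed the count filter. hmox1a had 44.3, 78.2, 20.5 and 27.4 CPM, against 209, 163, 134 and 183 CPM in blood, without overlap (-1.86 ± 0.41, edgeR adjusted p = 0.000877; -1.82 in libraries 1 and 2 alone and -2.22 in libraries 3 and 4 alone). Its direction turned when macrophage-like cells were left out, an alternative chosen after seeing the data: blood then had 6.44, 5.09, 7.39 and 6.97 CPM, and the tubule was higher by 2.78 (adjusted p = 2.25e-05).

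The remaining members of this comparison did not pass. atf3 had 247, 497, 201 and 323 CPM in the tubule, against 146, 180.2, 109 and 145 CPM in blood, with no overlap between the groups but a difference of 1.36 ± 0.61 (edgeR adjusted p = 0.0772). With the library as a block it was called (1.39, adjusted p = 0.00797), as it was within each batch (0.97 in libraries 1 and 2 alone and 1.56 in libraries 3 and 4 alone). anxa2a had 12.3, 30.8, 15.6 and 5.09 CPM, against 47.7, 45.8, 21.8 and 23.9 CPM, and the groups overlapped (-0.96 ± 0.57, edgeR adjusted p = 0.18). The members below the filter were compared only by their pooled levels. clu (2.996 CPM in the tubule against 0.121 CPM in blood, 46 against 18 UMIs), spp1 (9.12 against 0.101 CPM, 140 against 15 UMIs) and sox9a (2.67 against 0.0337 CPM, 41 against 5 UMIs) were each higher in every tubule library than in any blood library. The share of all genes that lay apart in this way was not computed. For clu the tubule of library 1 had 0.323 CPM, from 1 UMI of PTEC-like cells, against at most 0.245 CPM in blood. In 1 cell were 33 of the 46 tubule UMIs of clu. Macrophage markers summed to 333, 321, 165 and 114 CPM in the tubule with all 11 detected, against 3501, 3078, 3033 and 2902 CPM in blood. Neutrophil markers summed to 5028, 7699, 2454 and 2796 CPM against 58694, 61169, 32383 and 33264 CPM, and their part in these differences was not tested.

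**Figure D4:**
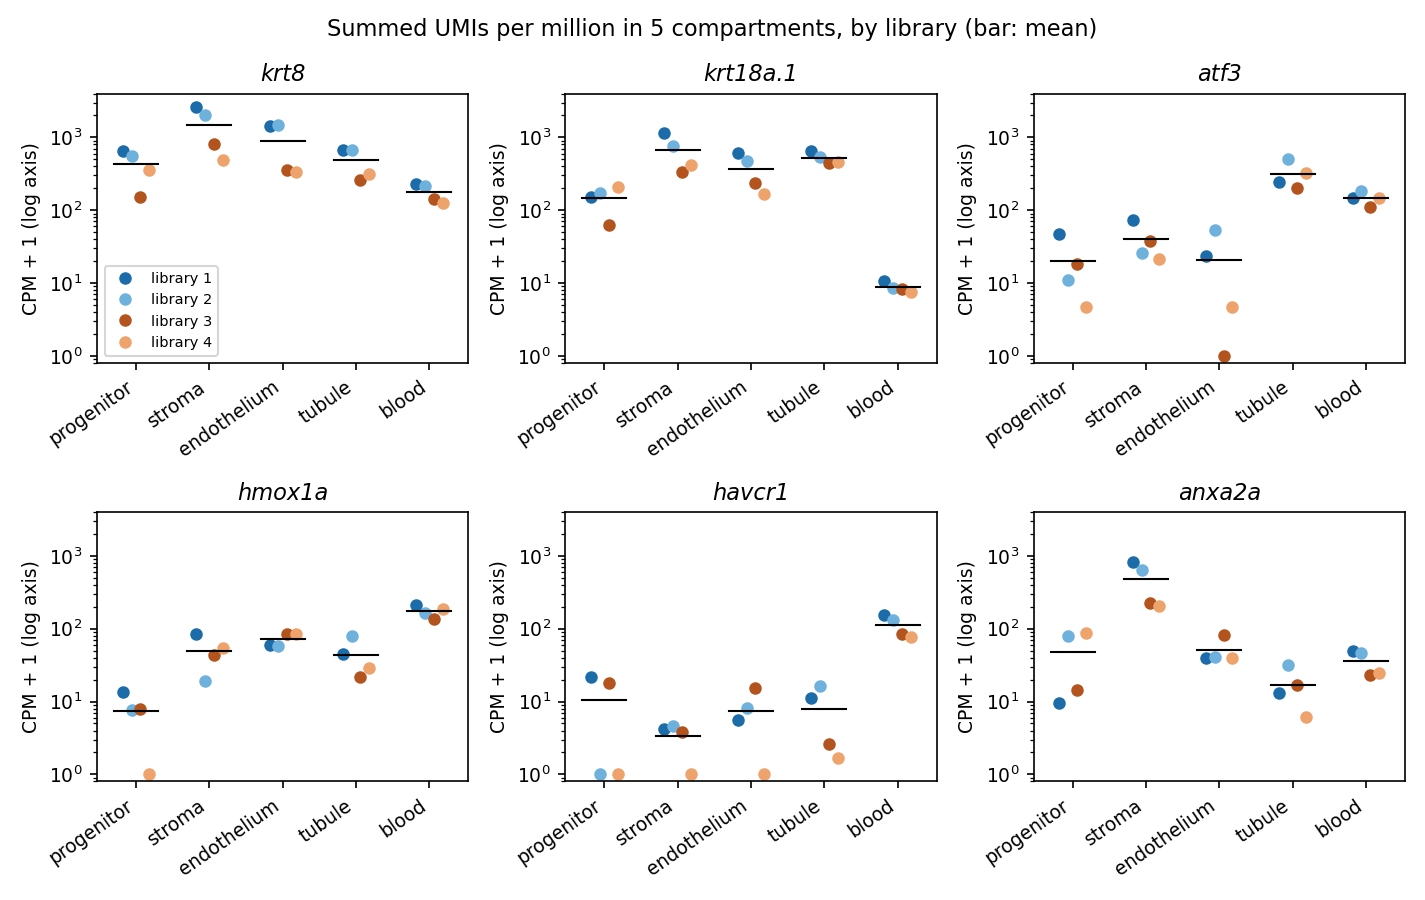
CPM of each member in the 5 compartments (points are the 4 libraries, the bar their mean; log axis of CPM + 1). The tubule points of havcr1 lie at or below 15.2 CPM and those of blood between 76.9 and 153 CPM, and the stroma points of anxa2a lie above every other compartment.

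Around these members, lists of related genes were split as follows, where each gene named with its log2 difference passed the threshold. Of 28 immediate early and heat shock genes tested 16 were higher in the tubule and 3 lower (median 1.56, against -0.06 for all genes), with cebpd (5.43 ± 0.51) and fosl1a (5.39 ± 0.51), transcription factors of the acute response, among the higher. The flow-responsive klf2b (-3.16 ± 0.53) was among the lower. Of 17 oxidative stress and heme genes 7 were higher and 3 lower. The quinone reductase nqo1 (6.17 ± 0.65) and gclm of glutathione synthesis (2.34 ± 0.54) were higher, and slc40a1 (-3.11 ± 0.57) and the biliverdin reductase blvrb (-2.47 ± 0.63) lower. The list of dedifferentiation and scar genes had 12 of 22 higher and 3 lower, led by the nephron transcription factors hnf1bb (9.66 ± 0.59) and hnf1ba (9.51 ± 0.64), which every tubule cell uses. Of 13 integrated stress and endoplasmic reticulum genes 3 were higher (atf5b, 3.89 ± 0.45) and 3 lower (asns, -1.55 ± 0.45). Of 8 p53 targets 3 were higher, among them the cyclin ccng1 (1.03 ± 0.38), and none lower, with a median of -0.11 that lay below that of all genes. Among 5 other keratins krt91 (7.59 ± 1.44) and krt4 (5.97 ± 1.08) were higher and krt18b (-2.45 ± 0.49) lower. Among 8 annexins and S100A10 genes 1 was higher and 4 lower, with anxa3b (-3.38 ± 0.32) the lowest. Of 4 SoxC and SoxE genes sox11b (3.75 ± 0.65) and sox4a (1.48 ± 0.31) were higher. Of 10 integrins and receptors that bind osteopontin or act beside Kim-1, the endocytic receptor lrp2a (6.92 ± 0.81) and itgb6 (4.01 ± 0.79) were higher and 2 were lower. The medians were 1.70 for dedifferentiation and scar, 1.11 for SoxC and SoxE, 0.65 for oxidative stress, 0.27 for integrated stress, 0.18 for integrins and partners, -0.16 for keratins and -0.43 for annexins and S100A10.

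In nephron progenitors set against the tubule, 3 of the 6 members were called, all of them lower in progenitors, beside 37.5% of all genes called (15.0% higher and 22.6% lower). Progenitors numbered 23, 31, 19 and 18 cells in libraries 1 to 4. Without the 6% of cells with the highest doublet scores 15, 28, 4 and 4 remained, so most progenitors of libraries 3 and 4 had such scores. All 3 calls held in that setting. Whether the cells left out are doublets was not tested. atf3 had 46.3, 9.93, 17.01 and 3.75 CPM in progenitors, against 247, 497, 201 and 323 CPM in the tubule. The groups did not overlap, although the progenitor values rest on 20 UMIs in 9 cells (-4.80 ± 0.77, edgeR adjusted p = 7.61e-05; -4.22 in libraries 1 and 2 alone and -5.68 in libraries 3 and 4 alone). hmox1a had 12.6, 6.62, 6.80 and 0 CPM from 7 UMIs, against 44.3, 78.2, 20.5 and 27.4 CPM, without overlap (-3.37 ± 0.57, edgeR adjusted p = 0.000118; -3.11 in libraries 1 and 2 alone and -3.80 in libraries 3 and 4 alone). krt18a.1 had 151, 169, 61.2 and 209.8 CPM, against 659, 542, 445 and 465 CPM, also without overlap (-2.56 ± 0.39, edgeR adjusted p = 4.37e-05; -2.31 in libraries 1 and 2 alone and -2.82 in libraries 3 and 4 alone).

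krt8, by contrast, had 643, 549, 153 and 359.7 CPM in progenitors, against 675, 678, 263 and 313 CPM in the tubule, and the ranges overlapped (-0.82 ± 0.51, edgeR adjusted p = 0.219). Library by library the progenitor value was lower in 1, 2 and 3 and higher in 4, and with the library as a block the difference was called (-0.94, adjusted p = 0.00746). Both differences were taken after TMM scaling. Pooled over libraries without it, krt8 had 417.8 CPM in progenitors and 421.04 CPM in the tubule. anxa2a had 8.41, 79.4, 13.6 and 86.2 CPM against 12.3, 30.8, 15.6 and 5.09 CPM (0.93 ± 0.62, edgeR adjusted p = 0.252) and havcr1 21.03, 0, 17.01 and 0 CPM against 10.02, 15.2, 1.64 and 0.664 CPM (-0.07 ± 0.96, edgeR adjusted p = 0.962). Both overlapped, and the direction of havcr1 differed between batches (-0.81 in libraries 1 and 2 alone and 1.84 in libraries 3 and 4 alone). Pooled over libraries, spp1 was at least 3.35-fold lower in progenitors (0 UMIs, with 3 counts over the group taken as the limit, against 140 UMIs in the tubule).

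Lists of stress genes were lower in progenitors as well. Called lower were 12 of 17 oxidative stress and heme genes (median -2.10, against -0.18 for all genes; the metallothionein mt2, -6.35 ± 0.83, and the peroxiredoxin prdx1, -3.11 ± 0.44) and 18 of 28 immediate early genes (egr3, -4.21 ± 1.06; hsp70.1, -4.13 ± 0.79). The same held for 8 of 13 integrated stress genes (atf5b, -3.00 ± 0.51; ddit3, -2.73 ± 0.33) and 6 of 8 p53 targets (tnfrsf1a, -2.23 ± 0.37). Higher in progenitors were sox11a (4.39 ± 0.35), the integrin itga9 (4.84 ± 0.64) and 9 of 22 dedifferentiation and scar genes, among them col1a2 (7.85 ± 1.36) and ncam1a (6.63 ± 0.79), a cell adhesion gene of condensing nephron mesenchyme. Of the same list 3 were lower, among them vim (-2.91 ± 0.82), the intermediate filament vimentin. Annexins and S100A10 had 2 of 8 higher (anxa13, 3.23 ± 0.60) and 4 lower, integrins and partners 2 of 10 higher and 1 lower, and of 4 SoxC and SoxE genes 1 other was lower. Of 5 keratins krt94 (5.76 ± 1.28) and krt18b (1.85 ± 0.50) were higher and krt4 (-5.43 ± 1.52) lower. The medians were -1.75 for immediate early, -1.92 for integrated stress and -1.39 for p53 targets, -0.67 for annexins, -0.13 for SoxC and SoxE, -0.05 for dedifferentiation and scar, 1.12 for integrins and 1.85 for keratins. Without TMM scaling the median of all genes was 0.55 in this comparison in place of -0.18, and 71.0% of the calls were then higher in progenitors in place of 39.9%. All 3 members called lower were called lower there too. Macrophage markers summed to 547, 33.1, 364 and 37.5 CPM in progenitors with all 11 detected, against 333, 321, 165 and 114 CPM in the tubule. Neutrophil markers summed to 2611, 3193, 7931 and 322 CPM with 10 of 11 detected, against 5028, 7699, 2454 and 2796 CPM, and the part of either was not tested.

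In stroma set against the tubule, anxa2a was higher and atf3 lower, 2 of the 6 members, beside 37.0% of all genes called (16.0% higher and 21.0% lower), a share close to that of the members. anxa2a had 832, 637, 221 and 207 CPM in stroma, against 12.3, 30.8, 15.6 and 5.09 CPM in the tubule, and the lowest stroma library was above the highest of the tubule (4.36 ± 0.64, edgeR adjusted p = 2.23e-05; 4.77 in libraries 1 and 2 alone and 3.83 in libraries 3 and 4 alone). atf3 had 73.3, 25.1, 36.3 and 20.2 CPM, against 247, 497, 201 and 323 CPM (-3.56 ± 0.70, edgeR adjusted p = 0.000445; -3.25 in libraries 1 and 2 alone and -3.74 in libraries 3 and 4 alone). krt8 had 2638, 2051, 805 and 489 CPM, against 675, 678, 263 and 313 CPM. Stroma was the higher one in each library, but the libraries of the first batch stood far above those of the second in both groups (1.09 ± 0.51, edgeR adjusted p = 0.105; 1.42 in libraries 1 and 2 alone and 0.68 in libraries 3 and 4 alone), and with the library as a block the difference was called (0.96, adjusted p = 0.00522). Neutrophil markers in stroma moved with the same split, at 15056, 10449.8, 445 and 923 CPM with all 11 detected, as did immediate early genes (7961, 6528, 1437 and 3327 CPM). Their part was not tested. krt18a.1 (1153, 769, 336 and 413 CPM in stroma), hmox1a (82.8, 17.9, 41.9 and 52.9 CPM) and havcr1 (3.19, 3.58, 2.80 and 0 CPM from 3 UMIs) overlapped the tubule, with edgeR adjusted p = 0.626, 0.734 and 0.258. clu, below the filter, had a pooled level of 123.2 CPM in stroma against 2.996 CPM in the tubule, a ratio of 41.1. Each stroma library was above each tubule library, and the share of all genes that lay apart in this way was not computed. The pooled ratio of spp1, 3.34, came from 1 cell.

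The genes listed around the members divided in stroma. Annexins and S100A10 had 6 of 8 genes higher and 2 lower (median 1.84, against -0.05 for all genes), with anxa13 (4.69 ± 0.61) and anxa1a (3.76 ± 0.48) the highest and anxa4 (-1.62 ± 0.31) the lowest. Osteopontin-binding integrins and partners had 7 of 10 higher and 2 lower, led by itga9 (6.17 ± 0.67) and itga4 (4.44 ± 0.77), with lrp2a (-5.86 ± 0.92) lower. Dedifferentiation and scar genes had 16 of 22 higher and 4 lower, the collagens col1a2 (12.89 ± 1.31) and col1a1a (12.05 ± 1.39) against the nephron factors pax8 (-13.35 ± 1.28) and hnf1ba (-9.14 ± 0.83). col1a2 is also one of the markers that named the RIC-like cells. Among other keratins krt94 (9.81 ± 1.33) and krt18b (4.08 ± 0.53) were among 3 of 5 higher. Oxidative stress and heme genes had 10 of 17 lower (mt2, -4.39 ± 0.70) and integrated stress genes 7 of 13 (ppp1r15a, -2.16 ± 0.40). Immediate early genes had 12 of 28 lower with 2 higher (hsp70.1, -5.26 ± 0.87; klf2a, 2.56 ± 0.56) and p53 targets 2 of 8 (ccng1, -1.56 ± 0.39). sox4a was higher (1.04 ± 0.31) and sox11b lower (-2.88 ± 0.74). The medians were 4.08 for keratins, 2.86 for integrins, 2.81 for dedifferentiation and scar, -0.16 for SoxC and SoxE, -0.68 for p53 targets, -0.83 for integrated stress, -1.12 for oxidative stress and -1.36 for immediate early genes. Without TMM the median of all genes was 0.47 in place of -0.05, and 66.4% of the calls were higher in stroma in place of 43.3%.

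In endothelium set against the tubule, atf3 and krt18a.1 were lower, 2 of the 6 members, beside 39.5% of all genes called (16.8% higher and 22.7% lower), again close to the share of the members. atf3 had 22.8, 51.7, 0 and 3.62 CPM in endothelium from 34 UMIs, against 247, 497, 201 and 323 CPM in the tubule (-4.71 ± 0.75, edgeR adjusted p = 4.22e-05; -3.64 in libraries 1 and 2 alone and -7.92 in libraries 3 and 4 alone, where 2 UMIs remained in endothelium). krt18a.1 had 606, 477, 235 and 168 CPM, against 659, 542, 445 and 465 CPM. Endothelium was lower in each library, the ranges overlapped, and the difference of -1.11 ± 0.37 (edgeR adjusted p = 0.0215; -0.48 in libraries 1 and 2 alone and -1.83 in libraries 3 and 4 alone) was not called without library 2, 3 or 4 (adjusted p = 0.066, 0.0515 and 0.113) nor without TMM (-0.53, adjusted p = 0.332). It was also not called in libraries 1 and 2 alone (adjusted p = 0.0993), with thinned cells (-0.63, adjusted p = 0.181) or without the cells of highest doublet score (-0.94, adjusted p = 0.0958). krt8 had 1423, 1496, 357 and 338 CPM (0.35 ± 0.51, edgeR adjusted p = 0.614), and its direction differed between batches (0.78 in libraries 1 and 2 alone and -0.38 in libraries 3 and 4 alone). hmox1a had 59.2, 56.4, 82.4 and 83.2 CPM (0.31 ± 0.41, edgeR adjusted p = 0.583; -0.39 in libraries 1 and 2 alone and 1.14 in libraries 3 and 4 alone). anxa2a had 38.7, 39.9, 80.8 and 38.002 CPM, above every tubule library, but not called without a block (1.22 ± 0.60, edgeR adjusted p = 0.114; with the block 1.34, adjusted p = 0.0388). havcr1 had 4.55, 7.05, 14.3 and 0 CPM from 14 UMIs and overlapped the tubule (edgeR adjusted p = 0.801). sox9a had no UMI in endothelium and was at least 1.82-fold lower there (3 counts over the group taken as the limit).

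Endothelium had a higher krt94 (8.47 ± 1.29) and anxa13 (4.97 ± 0.62), in lists with 3 of 5 keratins higher and 2 lower, and 3 of 8 annexins and S100A10 genes higher and 2 lower. The iron exporter slc40a1 (3.88 ± 0.59) was the 1 oxidative stress and heme gene called higher, beside 7 of 17 lower (gclm, -3.36 ± 0.65; nqo1, -2.71 ± 0.63). The shear-stress factors klf2a (4.02 ± 0.58) and klf2b (2.98 ± 0.53) were the 2 of 28 immediate early genes called higher, beside 13 lower (hsp70.3, -5.23 ± 0.96). Of the other lists, 7 of 13 integrated stress genes were lower (atf5b, -3.06 ± 0.49), 1 of 8 p53 targets was higher (sesn1, 1.18 ± 0.23) and 4 lower. Of integrins and partners 4 of 10 were higher (itga9, 4.58 ± 0.64) and 2 lower. Higher were also 7 of 22 dedifferentiation and scar genes (vcam1b, 6.40 ± 0.84), with 5 lower, and sox11b (-3.48 ± 0.74) and sox11a (-2.77 ± 0.48) were lower. The medians were 1.79 for keratins, 0.95 for integrins, 0.71 for dedifferentiation and scar, 0.70 for annexins, -0.84 for oxidative stress, -0.85 for p53 targets, -1.01 for integrated stress, -1.44 for immediate early and -1.76 for SoxC and SoxE genes. Without TMM the median of all genes was 0.47 in place of -0.05, and 65.6% of the calls were higher in endothelium in place of 42.6%. Neutrophil markers summed to 9161, 16609, 4619 and 5813 CPM and erythroid markers to 8817, 2347, 1116 and 1678 CPM in endothelium, against 5028, 7699, 2454 and 2796 and 2512, 2698, 2825 and 593 CPM in the tubule, all of them detected, and their part was not tested.

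**Figure D5:**
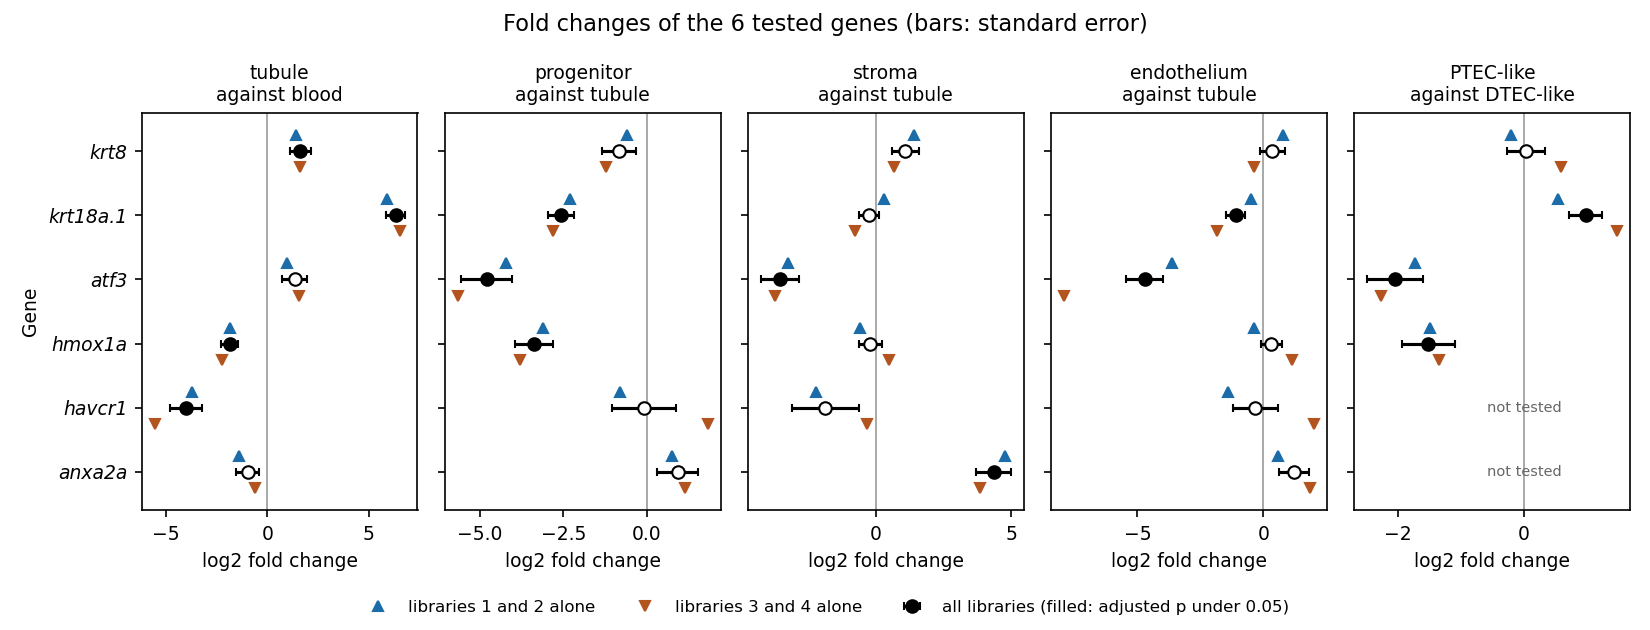
Log2 fold change (x axis; bars are 1 SE) of the tested members in each comparison, for all 4 libraries and for libraries 1 and 2 and libraries 3 and 4 alone. The stroma estimates of anxa2a lie between 3.83 and 4.77 and the progenitor estimates of atf3 between -5.68 and -4.22, and those of krt8 in endothelium fall on both sides of 0 (the endothelial atf3 estimate of libraries 3 and 4 rests on 2 UMIs).

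The proximal tubule, where gentamicin is taken up, was compared with the distal tubule in a fit of its own over 9503 genes. Of the 4 members that passed the filter there (krt8, krt18a.1, hmox1a and atf3), krt18a.1 was higher in PTEC-like cells and hmox1a and atf3 lower, 3 of 4, beside 36.9% of all genes (17.7% higher and 19.2% lower). atf3, whose values in each library are given above, did not overlap between the segments and differed by -2.05 ± 0.45 (edgeR adjusted p = 0.00556; -1.74 in libraries 1 and 2 alone and -2.28 in libraries 3 and 4 alone). krt18a.1 had 729.5, 598, 881 and 1055 CPM in PTEC-like cells, against 571, 497, 307 and 234 CPM in DTEC-like cells. PTEC-like cells were higher in each library, without overlap, and most so in libraries 3 and 4 (0.98 ± 0.26, edgeR adjusted p = 0.0152; 0.54 in libraries 1 and 2 alone and 1.48 in libraries 3 and 4 alone). The call was lost without library 3 or 4 (adjusted p = 0.0576 and 0.0649), without TMM (0.0725), in libraries 1 and 2 alone (0.0721) and with thinned cells (0.0629). hmox1a had 31.5, 22.9997, 11.3 and 16.5 CPM, against 60.2, 123, 23.5 and 31.7 CPM. It was lower in PTEC-like cells of each library, though the ranges overlapped (-1.52 ± 0.42, edgeR adjusted p = 0.0186; -1.49 in libraries 1 and 2 alone and -1.35 in libraries 3 and 4 alone), and the call was lost without library 2 or 4 (adjusted p = 0.0906 and 0.0649) and without TMM (0.0652). krt8 had 590.3, 562, 380.1 and 513 CPM, against 781, 771, 226 and 234 CPM, and its difference of 0.04 ± 0.30 (edgeR adjusted p = 0.939) turned direction between batches (-0.21 in libraries 1 and 2 alone and 0.59 in libraries 3 and 4 alone).

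The segments differed in the same direction as atf3 in most immediate early genes: 23 of 29 were lower in PTEC-like cells, with egr2a (-6.02 ± 0.68) and egr3 (-5.02 ± 0.59) the lowest (median -2.46, against -0.04 for all genes). All 4 SoxC and SoxE genes tested were lower, sox11b by the most (-5.84 ± 0.46). Oxidative stress and integrated stress genes went the other way in part. Higher in PTEC-like cells were 6 of 18 oxidative stress and heme genes (gclm, 3.28 ± 0.40; mt2, 2.36 ± 0.27) and 4 of 15 integrated stress genes (atf5b, 2.50 ± 0.33; asns, 2.15 ± 0.32), of which 2 were lower (ppp1r15a, -2.05 ± 0.37). Of 9 p53 targets 2 were higher (rps27l, 1.64 ± 0.44) and 2 lower (sesn1, -3.06 ± 0.34). Of 4 other keratins krt18a.2 was higher (2.70 ± 0.40) and krt5 lower (-7.52 ± 0.82) (related keratin genes could share reads, and how such reads were counted is not stated). Annexins and S100A10 had 3 of 7 lower (anxa1a, -2.19 ± 0.55), osteopontin-binding integrins and partners 2 of 7 higher (lrp2a, 5.78 ± 0.45) and 2 lower (itgb5, -2.36 ± 0.61). Dedifferentiation and scar genes had 1 of 12 higher (hnf1bb, 1.32 ± 0.22) and 3 lower (pax8, -4.42 ± 0.24; the connective tissue growth factor ccn2a, -5.06 ± 0.75). The medians were 0.80 for integrated stress, 0.58 for oxidative stress, 0.15 for keratins, 0.06 for p53 targets, -0.37 for integrins, -0.63 for annexins, -0.97 for dedifferentiation and scar and -2.91 for SoxC and SoxE genes. Summed neutrophil markers were below those of DTEC-like cells in each library (3501, 5216, 1157 and 1393 CPM against 6929, 9705, 2865 and 3345 CPM, all 11 detected), and macrophage markers were higher in libraries 1, 2 and 4 (459, 588, 109 and 268 against 176, 106, 183 and 53.2 CPM). Their part in these differences was not tested. spp1, without a test, had 0 UMIs in PTEC-like and 140 UMIs in DTEC-like cells.

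The genes whose pattern over the 13 classes was most like that of each member were found by Pearson's r of log2(CPM + 10), averaged over libraries, among 12410 genes of at least 20 CPM in a class. They were si:ch211-283g2.2 (0.98), zgc:152753 (0.98) and si:dkey-88j15.3 (0.97) for havcr1, lipf (0.95), lygl1 (0.95) and ctsba (0.95) for hmox1a. They were snx4 (0.94), gng12a (0.94) and si:dkey-7j14.6 (0.94) for krt8 and epn3a (0.98), daam1a (0.97) and rab13 (0.96) for krt18a.1. For anxa2a they were dusp16 (0.94), anxa5b (0.93) and si:ch211-220f12.1 (0.91) and for atf3 chia.6 (0.91), plekhf1 (0.91) and f11r.1 (0.88). For clu they were spon2b (0.99), LOC100535731 (0.99) and ifitm1 (0.99) and for spp1 LOC110438814 (0.99), nrg2a (0.98) and fhl3b (0.98). sox9a and sox9b did not reach 20 CPM in any named class, so none was sought. Among the members themselves krt8 and krt18a.1 (0.87) and havcr1 and hmox1a (0.83) were the most alike pairs, while havcr1 had an r of 0.06 with krt18a.1. These values are descriptions over classes of the same libraries.

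As a description of single cells, with cells thinned to 1000 UMIs, krt8 and krt18a.1 were both detected in 70 of 949 DTEC-like cells (38.0 if independent), 52 of 383 PTEC-like cells (40.5) and 59 of 212 RIC-like cells (39.7). The pair was found in 39 of 1648 macrophage-like cells (27.2) and in 41 of 144 cluster 24 cells (38.2). atf3 was found with krt8 in 61 (34.1) and with krt18a.1 in 54 (29.0) DTEC-like cells. In macrophage-like cells krt18a.1 and hmox1a were both detected in 42 of 1648 cells (17.2 if independent), and hmox1a and anxa2a in 8 (18.02). Of the 15 pairs of members counted in macrophage-like cells, 10 were found together in more cells than independence gives and 5 in fewer. Cells pooled over libraries are not replicates, and these counts have no test.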

How the data were processed

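Single cells of 4 gentamicin-injured kidney libraries were profiled with the BD Rhapsody 3′ whole transcriptome assay. The authors trimmed reads with fastp, aligned them to GRCz11, collapsed UMIs with UMI-tools and deposited raw UMI counts per gene and cell, with Seurat 4.2 also named in the submitters' processing notes; the aligner and its annotation are not named in the labels or methods read here. No sample column was left unused. The deposited cells were used as they were, and no sequence or coordinate was read.

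Cells were clustered in Seurat 5.3.0 (R 4.3.3; 2000 variable genes scaled within each library, 30 components, resolution 0.6; the cells with RSC markers were clustered again with 10 components and resolution 0.1 to part them from follicle-like cells), with 175 member and list genes kept out. A cluster took the class of its highest mean marker log2 ratio where that was at least 1, at least 3 markers were detected and no other class had more markers among its top 10 genes (cluster 4, highest in T markers, had more NK ones and stayed unnamed). Clusters of low depth with no marker among the top 10 stayed unnamed. A kidney class also needed 1 marker there, a condition added after cluster 24 was seen; blood classes did not, and cluster 3 (2042 cells) was named neutrophil-like with 0. No doublets were removed in the main analysis. CPM is a gene's UMIs per 1000000 UMIs of a class in a library, and shares have exact (Clopper-Pearson) 95% intervals, which cover counting error only, as does the limit of 3 counts for a count of 0. For detection at equal depth, cells were thinned to 1000 UMIs (scanpy 1.11.5, scipy 1.17.1).

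Counts summed per library and compartment (at least 3 cells) were tested with edgeR 4.0.16 (filterByExpr, TMM, quasi-likelihood, Benjamini-Hochberg over all genes; limma 3.58.1), all 5 compartments in 1 fit and PTEC-like and DTEC-like cells in another. Same-numbered libraries pair the sums because they are cells of 1 library, and deviations correlated with r between 0.364 and 0.738. Alternatives were DESeq2 1.42.0, no TMM, no count filter, the library as a block, each library left out, each batch alone, thinned cells, resolution 1.0, genes scaled over all libraries together, 2 compartments only, follicle-like cells kept with progenitors, and the 6% of cells with the highest doublet scores left out; cluster 24 counted with the tubule and macrophage-like cells left out of blood were added after seeing the data. Tested on simulated counts, the fit called 62% of genes changed by 2 and 92% of those changed by 4 (log2) in tubule against blood, with 8 unchanged genes called. The simulated sums were drawn independently of each other from a single mean profile, with 100 of 9547 genes changed at each size. They hold neither the pairing by library nor the many differences between compartments, so these rates may not carry over to the data.

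Named genes are the 10 members, the 2 with the largest called difference per list and direction that kept it in each batch (fewer are printed for some lists), and the 3 most alike by Pearson's r among genes of at least 20 CPM in a class. Other genes given by level were chosen after their values were seen. The members and the lists (keratins, annexins and S100A10, oxidative stress and heme, integrated stress and ER, immediate early, SoxC and SoxE, p53 targets, osteopontin and Kim-1 partners, dedifferentiation and scar) were chosen with earlier results of these data known.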

Additional observations from a re-analysis of the deposited data

Results flagged for a closer look

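In 5 of 77 sets of 4 libraries (a member in a class, with at least 20 UMIs) the gap between 1 library and the nearest other passed Dixon's 95% limit. That limit is set for independent normal values. CPM of rare counts in libraries of different depth are not such values, so no rate under chance is given. clu had 34.9996 CPM in PTEC-like cells of library 2, where 1 cell held 33 of the class's 40 UMIs. spp1 had 146.7 CPM in RIC-like cells of library 2, all from 1 cell. anxa2a had 80.8 CPM in VEC-like cells of library 3. krt18a.1 had 6.96 CPM in erythroid-like cells of library 1, where 1 cell held 22 of 61 UMIs. havcr1 had 23.5 CPM in NK-like cells of library 1.

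Members were also high in cells that entered no comparison. sox9a averaged 78.0 CPM in cluster 24, and anxa2a averaged 569 CPM in cluster 2.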

How the results depend on the processing

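Of the tests of single members under an alternative, 385 kept direction and side of the threshold, 21 passed it newly, 17 no longer passed and 26 changed sign. hmox1a in tubule against blood changed sign as a called value (2.78 without macrophage-like cells); the other sign changes were of members not called in the main comparison, and the 17 lost calls were of krt8 in tubule against blood, krt18a.1 in endothelium against tubule, and krt18a.1 and hmox1a in PTEC-like against DTEC-like cells, as given beside each. In progenitor against tubule havcr1 was 0.49 without TMM, 0.089 with the block, 1.84 in libraries 3 and 4 alone, 2.63 without the highest doublet scores, 0.039 with cluster 24 in the tubule, and between -0.87 and 0.97 with a library left out. In stroma against tubule krt18a.1 was 0.33 without TMM, 0.31 in libraries 1 and 2 alone and 0.034 thinned, and hmox1a 0.20, 0.49 (libraries 3 and 4 alone), 0.11 (thinned), 0.12 (doublet scores) and between -0.54 and 0.36 with a library left out. In endothelium against tubule havcr1 was 0.0044 without TMM, 2.01 in libraries 3 and 4 alone, 0.25 without the highest doublet scores and between -1.58 and 0.28 with a library left out, hmox1a was -0.39 in libraries 1 and 2 alone, and krt8 -0.38 in libraries 3 and 4 alone. In PTEC-like against DTEC-like cells krt8 was -0.21 in libraries 1 and 2 alone, -0.43 thinned, -0.13 without the highest doublet scores and between -0.083 and 0.22 with a library left out.

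The number of genes called higher and lower moved by over 1.5 times in 36 of 162 cases. DESeq2 called 6297 and 3513 in tubule against blood, 2589 and 3374 in progenitor, 3119 and 3083 in stroma and 3027 and 3746 in endothelium against tubule; 64.2% of its tubule calls against blood were higher, against 54.2% with edgeR. Without the count filter 4684 and 3895 were called in tubule against blood, and 3234, 3306 and 3738 were lower in progenitor, stroma and endothelium, where more genes were tested. Without TMM the counts were 2985 and 1220 in progenitor, 2562 and 1294 in stroma, and 2726 and 1431 in endothelium. Libraries 1 and 2 alone gave 3492 lower in tubule against blood, and libraries 3 and 4 alone 3518 lower there, 2474 higher in stroma and 2708 higher in endothelium. Thinned cells, with fewer counts, gave 716 and 831 in tubule against blood, 237 and 575 in progenitor, 557 and 582 in stroma, 686 and 572 in endothelium, and 400 and 373 in PTEC-like against DTEC-like cells. With only tubule and blood in the fit 4692 and 5057 were called, and without the highest doublet scores 751 were higher in progenitor. The cause of the other moves was not tested. With the library as a block, in the pairing of sums by library, the calls of 4 tests changed, as given beside atf3, krt8 and anxa2a above (1.39, -0.94, 0.96 and 1.34), and no other member's call changed. Thinning to 1000 UMIs moved 104 of 130 shares of cells with a UMI outside their 95% interval. Fewer UMIs per cell lower detection by construction, so this count does not measure how stable the results are.

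Depth limits clu, spp1, sox9a and sox9b, which had at most 255 UMIs in 31008 cells, and the progenitor and endothelial values of havcr1 and atf3, which rest on 10 to 34 UMIs. Progenitors numbered between 18 and 31 cells a library, and 4 in each of libraries 3 and 4 without the highest doublet scores.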
